A study of Mus musculus with 16 samples.

Results

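Chemokines are small secreted proteins that direct the movement of cells, and chemokine receptors are the membrane proteins that read them. The gene family described here took every mouse gene symbol that begins with Ccl, Cxcl, Ccr, Cxcr or Ackr followed by a digit, plus Cx3cl1, Cx3cr1, Xcl1 and Xcr1, with pseudogenes and 1 atypical receptor symbol left out by the rule. Of 25719 gene identifiers in the count files, 59 met it, 37 of them ligands and 22 of them receptors. The rule used names and no measured value.

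RNA was sequenced in bulk from mouse tail tendon fascicles, the thin collagen cords that run along the tail. The 8 knockout libraries (KO 1 to KO 8) carried ScxCre;Vhlf/f, that is, floxed Vhl alleles with a Cre recombinase driven by Scx, a transcription factor gene of tendon cells. The 8 wild type libraries (WT 1 to WT 8) were given only as wild type, so it is not stated whether they carried either allele, and no library is stated to have been treated. The protein made from Vhl recognises hypoxia-inducible factors (HIFs) in normal oxygen and sends them to be degraded. The labels used here do not give age, sex or strain, nor whether libraries of one group came from separate animals, so the p-values measure the spread between these libraries. Cre under Scx acts in tendon lineage cells, while the labels give the RNA as coming from all cells of the tissue, so immune, vessel and nerve cells that keep Vhl were sampled with the tendon cells.

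Totals ran from 10488355 to 18753254 counts in KO and from 10792900 to 16379401 in WT, and all members together took 0.0597 to 0.0731% of the counts of a KO library and 0.0531 to 0.0634% of those of a WT library. At these depths the limit that a count of 0 allows (3 counts) stood at 0.145 to 0.256 CPM (counts scaled to a common library size, per 1e6) in KO and 0.209 to 0.336 CPM in WT. Such limits cover counting error only. The targeted gene, Vhl, measured 9.35 ± 1.25 CPM in KO and 20.5 ± 3.69 CPM in WT (SD, n = 8 each here and in every group value that follows), with KO over WT at -1.13 on the log2 scale (SE 0.113, adjusted p = 9.64e-08), and its groups did not overlap (7.51 to 10.9 against 14.1 to 25.8 CPM). Of 11 tendon cell markers 8 were lower and 1 higher, where 22.7% of all tested genes were lower and 25.6% higher. Skeletal muscle markers summed to 443 to 26276 CPM in KO, highest in KO 6, KO 7 and KO 8, and to 104 to 11401 CPM in WT, highest in WT 5, so muscle RNA was present in very unequal amounts.

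Chemokines fall into families named for the spacing of their first cysteines (CC, CXC, CX3C, XC). Most act through receptors coupled to inhibitory G proteins, and a group of atypical receptors binds chemokines without that coupling and removes or redistributes them. Inflammatory chemokines are induced in tissue cells and macrophages and recruit monocytes, neutrophils and lymphocytes, while homeostatic ones place cells in resting tissues. They are held near their source by heparan sulfate and are trimmed or released by proteases.

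Of the 59 members, 33 had counts high enough to be tested and 26 did not. Among the 33, 20 were higher in KO, 8 were lower and 5 did not pass an adjusted p of 0.05 (edgeR quasi-likelihood test, Benjamini-Hochberg adjustment over all 14803 tested genes). Over all tested genes the test called 48.3%, of which the share called higher was 25.6% of tested genes and the share called lower was 22.7%. The median log2 fold change was 0.66 over the tested members and 0.02 over all tested genes. It was 0.76 for the 21 tested ligands, of which 13 rose and 5 fell, and 0.38 for the 12 tested receptors, of which 7 rose and 3 fell. In 7 members every KO library lay above every WT library, against 10.8% of all tested genes, and in 6 every KO library lay below every WT library, against 8.61%. Scaling by total counts in place of trimmed means moved the median of all genes to 0.32 and the share of all calls that were higher from 53.0% to 85.4%. Under that scaling 21 members were higher and 8 lower. Without KO 6, KO 7, KO 8 and WT 5, the libraries with most muscle RNA, the counts were 20 and 8. Because the RNA is from whole tissue, fewer cells of a type and less RNA per cell cannot be told apart in any of these values.

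**Figure D1:**
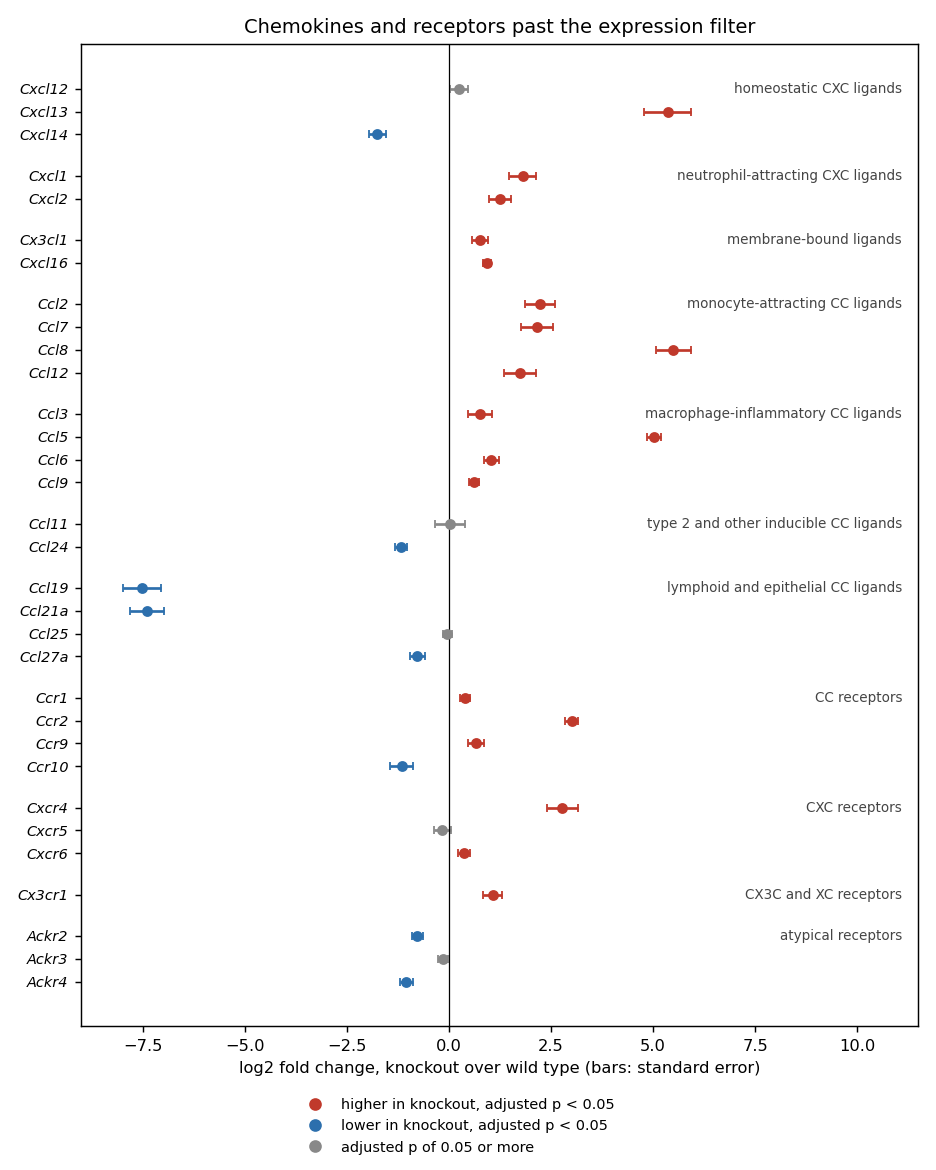
The plot gives the log2 fold change of KO over WT (x axis, bars show the standard error) for tested chemokine and receptor genes, grouped by role, with colours for the call. The 4 monocyte-attracting ligands lie right of 0, while Ccl19 and Ccl21a lie past -7 at the far left.

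Promoter sequence was read for the members from RefSeq on mouse build GRCm38.p6, as the 250 bases before each annotated start. A window was found for 45 of the 59 members, 52 windows in all because some genes have more than 1 start. Both strands were searched for the core letters of the hypoxia response element, ACGTG and GCGTG, and for the consensus motif of NF-kB, a transcription factor family of inflammatory signalling. ACGTG or GCGTG was in 46.2% of member windows and in 38.6% of all 32851 windows. The NF-kB consensus was in 21.2% of member windows (11 of 52) and in 7.25% of all windows. These shares are descriptions, since clustered and duplicated genes have related promoters. Ccl2, Ccl5, Ccl7 and Cxcl16, which all rose, are among the members without a window. The windows of 4 members are given as examples. Cxcl1 and Cxcl2 are neighbours on chromosome 5 that rose together. Cxcr4 is the receptor with the largest fold change after Ccr2, and Cxcl14 the member with the highest level in WT. Capitals mark each match to any of the searched motifs.
Cxcl1: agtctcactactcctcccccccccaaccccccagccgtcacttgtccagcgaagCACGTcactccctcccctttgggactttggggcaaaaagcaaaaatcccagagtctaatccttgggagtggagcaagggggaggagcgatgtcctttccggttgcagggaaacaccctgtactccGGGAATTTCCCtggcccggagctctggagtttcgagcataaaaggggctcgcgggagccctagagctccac
Cxcl2: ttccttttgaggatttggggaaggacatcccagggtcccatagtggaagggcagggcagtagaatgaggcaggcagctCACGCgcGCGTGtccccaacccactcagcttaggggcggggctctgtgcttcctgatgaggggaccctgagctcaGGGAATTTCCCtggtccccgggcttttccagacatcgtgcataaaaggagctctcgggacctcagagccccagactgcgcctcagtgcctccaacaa
Cxcr4: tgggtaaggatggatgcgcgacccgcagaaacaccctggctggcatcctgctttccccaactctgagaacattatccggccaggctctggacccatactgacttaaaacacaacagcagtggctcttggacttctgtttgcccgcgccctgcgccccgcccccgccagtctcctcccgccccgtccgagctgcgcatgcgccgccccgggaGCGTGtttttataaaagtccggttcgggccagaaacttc
Cxcl14: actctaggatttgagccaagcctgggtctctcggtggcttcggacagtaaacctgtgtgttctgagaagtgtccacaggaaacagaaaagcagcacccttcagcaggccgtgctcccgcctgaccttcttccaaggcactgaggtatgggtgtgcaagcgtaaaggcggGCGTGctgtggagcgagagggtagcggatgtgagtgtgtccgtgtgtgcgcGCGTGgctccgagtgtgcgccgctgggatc

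The Cxcl1 window lies at chr5:90890995-90891244 on the plus strand and the Cxcl2 window at chr5:90903649-90903898 on the plus strand. In both, the long capital run is 1 NF-kB match on each strand, shifted by 1 base, beginning 71 bases before the start in Cxcl1 and 97 bases before it in Cxcl2. Besides these, Cxcl1 holds ACGTG on the opposite strand 196 bases before the start, and Cxcl2 holds GCGTG once on each strand, 165 and 172 bases before it. The Cxcr4 window, chr1:128592300-128592549 on the minus strand, holds GCGTG 39 bases before the start. The Cxcl14 window, chr13:56296552-56296801 on the minus strand, holds GCGTG 81 and 30 bases before the start and no NF-kB match. A match says only that these letters are present, and both a member that rose and a member that fell hold GCGTG. The NF-kB consensus is likewise not limited to members that rose: Ackr2, which fell, holds 3 matches. They are 1 on each strand of the same bases, beginning 224 bases before the start, and another beginning 64 bases before it. Nor do all members that rose hold it: the windows of Ccl8, Ccl12, Cxcl13, Ccr2 and Cxcr4, among others, have no NF-kB match.

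All 4 tested ligands that attract monocytes were higher in KO. Ccl8, a ligand for monocytes and other leukocytes, ran from 2.19 CPM in the lowest KO library through a median of 5.06 to 9.49 CPM in the highest, while WT ran from 0 through 0.0768 to 0.288 CPM. No WT library held more than 3 counts of it. The fitted fold of KO over WT, which the prior count pulls toward 1 at such low WT counts, was 45.2 (log2 fold change 5.50, SE 0.437, adjusted p = 4.16e-09). Every KO library lay above every WT library.

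Ccl2 is the main monocyte attractant and a ligand of Ccr2. It measured 5.58, 8.39 and 24.0 CPM at the lowest, median and highest of the KO libraries and 0.796, 1.73 and 4.99 CPM in WT. The fitted fold was 4.71 (log2 fold change 2.24, SE 0.360, adjusted p = 6.07e-05). The groups did not touch, but KO 5 at 24.0 CPM stood far above the next KO library at 9.86 CPM, and WT 5 was the highest of the WT libraries. Ccl7, which also binds Ccr2, ran 5.07, 8.14 and 18.1 CPM in KO against 0.298, 1.46 and 4.32 CPM in WT (log2 fold change 2.16, SE 0.394, adjusted p = 2.09e-04). Again the groups did not overlap and KO 5 and WT 5 were the highest of their groups. Without KO 5 the log2 fold changes were 1.92 for Ccl2 and 1.90 for Ccl7. Ccl12, a mouse ligand close in sequence to Ccl2, ran 2.99, 5.79 and 11.6 CPM in KO and 0.597, 1.55 and 5.76 CPM in WT (log2 fold change 1.73, SE 0.389, adjusted p = 0.00128). It overlapped only because WT 5, at 5.76 CPM, reached above the lower KO libraries.

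These 4 genes sit close together on chromosome 11 in the annotation (GRCm38.p6) with Ccl11 and Ccl1. Ccl11, the eosinophil attractant eotaxin, lies between Ccl7 and Ccl12 and did not pass the test. It measured 1.77 ± 1.37 CPM in KO and 1.83 ± 0.699 CPM in WT (log2 fold change 0.02, SE 0.364, adjusted p = 0.969). So 4 of the 5 tested genes of that cluster rose and the one between them did not pass. Ccl1 had too few counts to test.

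The macrophage-inflammatory CC ligands lie in a second cluster on chromosome 11, with Ccl5, Ccl9, Ccl6, Ccl3 and Ccl4 in that order, and each of the 4 that could be tested was higher in KO. Ccl5 (RANTES, ENSMUSG00000035042), which binds Ccr1 and Ccr3 among other receptors and attracts T cells and monocytes, gave the smallest adjusted p of the family. KO libraries ran 15.8, 20.2 and 28.9 CPM from lowest through median to highest, and WT libraries 0.398, 0.668 and 0.785 CPM. The fitted fold of KO over WT was 32.4 (log2 fold change 5.02, SE 0.165, adjusted p = 1.09e-14). The lowest KO library was far above the highest WT library, and the KO libraries varied little, with a coefficient of variation of 20.3% against 56.1% for Ccl2. Ccl6, a rodent ligand made by macrophages that binds Ccr1, ran 13.0, 18.5 and 26.4 CPM in KO and 6.28, 7.79 and 14.5 CPM in WT (log2 fold change 1.04, SE 0.186, adjusted p = 1.35e-04). Its neighbour Ccl9, another Ccr1 ligand of rodents, was 31.4 ± 5.59 CPM in KO and 20.4 ± 4.09 CPM in WT (log2 fold change 0.63, SE 0.122, adjusted p = 2.84e-04). Both overlapped between groups. Ccl3 was near the limit of detection, at 1.40 ± 0.524 CPM in KO and 0.848 ± 0.412 CPM in WT (log2 fold change 0.76, SE 0.298, adjusted p = 0.0431). That call was lost in 14 of 27 other settings, with an adjusted p of up to 0.191.

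**Figure D2:**
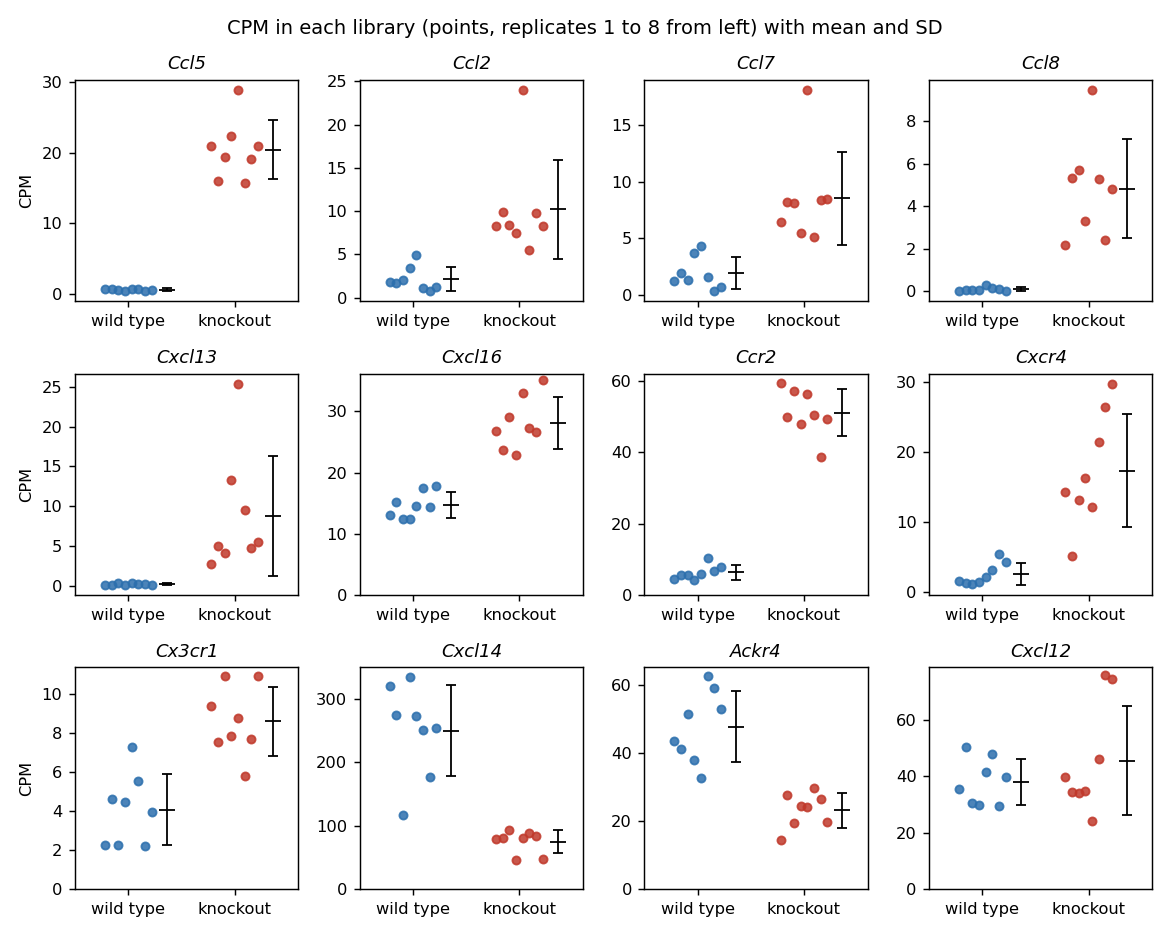
Each panel plots CPM in the 8 WT and 8 KO libraries of 1 gene (points, replicates 1 to 8 from left), with the mean and SD beside them. Ccl5 and Ccr2 form tight, separate groups, Ccl2, Ccl7, Ccl8 and Cxcl13 have KO 5 as their highest point, and Cxcl12 spreads from 24.2 to 76.2 CPM in KO around WT values of 29.5 to 50.5 CPM.

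Ccr2 (ENSMUSG00000049103), the receptor of Ccl2, Ccl7 and Ccl12 and a marker of recruited monocytes, was higher in KO. The libraries ran 38.7, 50.3 and 59.3 CPM in KO and 4.11, 5.82 and 10.3 CPM in WT. The fitted fold of KO over WT was 8.04 (log2 fold change 3.01, SE 0.153, adjusted p = 9.22e-12). No KO library came near the WT range. With the mean log2 CPM of the macrophage markers as a covariate, an alternative added after the data were seen, the log2 fold change for Ccr2 was 2.89 (adjusted p = 1.54e-11). Red blood cell genes were also higher in KO, 5 of 5 tested, beside 25.6% of all tested genes. Their sums were 77.8 to 563 CPM in KO and 15.1 to 50.8 CPM in WT. The part of blood content in Ccr2 and the other leukocyte genes was not tested.

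Ccr1, Ccr9 and Ccr10 changed by less, and the groups of each overlapped. Ccr1, the receptor of Ccl3, Ccl5, Ccl6 and Ccl9, was 10.9 ± 1.87 CPM in KO and 8.28 ± 1.43 CPM in WT (log2 fold change 0.40, SE 0.122, adjusted p = 0.0104). Without KO 5, KO 6, KO 8 and WT 8 it no longer passed (log2 fold change 0.28, adjusted p = 0.132). Ccr9, the receptor of the gut and thymus ligand Ccl25, was 2.80 ± 0.901 CPM in KO and 1.74 ± 0.266 CPM in WT (log2 fold change 0.66, SE 0.191, adjusted p = 0.00767). In 20.1% of its 50-base words Ccr9 matched transcripts of other genes, so its counts are uncertain. Ccr10, the receptor of Ccl27a and Ccl28, fell from 1.47 ± 0.736 CPM in WT to 0.655 ± 0.260 CPM in KO (log2 fold change -1.15, SE 0.280, adjusted p = 0.00204). Ccr1, Ccr2 and Ccr9 lie on chromosome 9, in a run of members that also holds Cxcr6, while Ccr10 lies on chromosome 11.

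Among the CXC receptors, Cxcr4, the receptor of Cxcl12 on leukocytes, endothelial tip cells and many progenitors, and a known HIF target in other tissues, was higher in KO. Libraries ran 5.19, 15.3 and 29.8 CPM in KO and 1.09, 1.89 and 5.37 CPM in WT, a fitted fold of 6.87 (log2 fold change 2.78, SE 0.383, adjusted p = 1.52e-05). KO 2 at 5.19 CPM lay just under WT 7 at 5.37 CPM, and all other KO libraries lay above all WT libraries. The 3 highest KO values were those of KO 8, KO 7 and KO 6, the KO libraries with the highest sums of muscle markers. Without these 3 and WT 5, which led the WT muscle sums, the log2 fold change was 2.25 (adjusted p = 2.36e-04). The same 3 libraries also led the KO sums of blood endothelial markers, which ran 59.7, 185 and 555 CPM in KO and 40.8, 49.7 and 58.9 CPM in WT. The part of muscle and endothelial content in the Cxcr4 values within KO was not tested.

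Cxcr6, the receptor of Cxcl16 on T and NK cells, was 3.01 ± 0.513 CPM in KO and 2.33 ± 0.400 CPM in WT (log2 fold change 0.36, SE 0.146, adjusted p = 0.0477). It passed in only 7 of 27 other settings. Cxcr5, the receptor of Cxcl13, did not pass, at 2.65 ± 0.790 CPM in KO and 2.94 ± 0.771 CPM in WT (log2 fold change -0.16, SE 0.210, adjusted p = 0.552). Its exons overlap those of Bcl9l by 110 bases. Cx3cr1, the fractalkine receptor of resident macrophages and patrolling monocytes, ran 5.78, 8.34 and 11.0 CPM in KO and 2.19, 4.21 and 7.30 CPM in WT (log2 fold change 1.07, SE 0.225, adjusted p = 5.84e-04), with some overlap.

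Both membrane-bound ligands were higher in KO, as was the receptor of each. Cxcl16, which is made by macrophages and stromal cells and shed by Adam10, ran 22.9, 27.0 and 35.1 CPM in KO and 12.4, 14.5 and 17.9 CPM in WT (log2 fold change 0.94, SE 0.10, adjusted p = 2.32e-07). Its groups did not overlap. Reads of Cxcl16 cannot be told from those of Zmynd15 where their exons overlap, over 552 bases, because it is not stated whether counting used strand. Zmynd15 moved in the same direction (log2 fold change 0.78, adjusted p = 6.28e-05). Cx3cl1 (fractalkine), the only ligand of Cx3cr1, ran 5.22, 8.11 and 13.3 CPM in KO and 3.86, 5.00 and 7.96 CPM in WT (log2 fold change 0.76, SE 0.20, adjusted p = 0.00394). Several KO libraries fell inside the WT range.

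The neutrophil-attracting ligands Cxcl1 and Cxcl2, whose promoter windows both hold the NF-kB match, were higher in KO at low levels. Cxcl1 ran 0.912, 1.77 and 2.72 CPM in KO and 0.112, 0.485 and 0.960 CPM in WT, a fitted fold of 3.50 (log2 fold change 1.81, SE 0.338, adjusted p = 1.85e-04). Cxcl2 ran 1.02, 1.41 and 2.04 CPM in KO and 0.298, 0.534 and 1.10 CPM in WT, a fitted fold of 2.38 (log2 fold change 1.25, SE 0.264, adjusted p = 5.82e-04). Cxcl2 shares 5.84% of its 50-base words with transcripts of Cxcl3, a close copy. In each gene the highest WT library reached just above the lowest KO library. Their receptors Cxcr1 and Cxcr2 had too few counts to test. The neutrophil marker list summed to 2.83 to 7.95 CPM in KO and 1.19 to 2.04 CPM in WT, 1 of its 12 genes could be tested (Csf3r, log2 fold change 1.81), and Ly6g had no count in any library.

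The homeostatic CXC ligands went in different directions. Cxcl14 (ENSMUSG00000021508), an epithelial and stromal chemokine, was the member with the highest level in WT both in CPM and per exon length. It ran 44.9, 80.3 and 92.2 CPM in KO and 116, 263 and 335 CPM in WT, a fitted fold of WT over KO of 3.36 (log2 fold change -1.75, SE 0.206, adjusted p = 1.87e-06). Every KO library lay below every WT library. Cxcl13, which draws B cells into lymphoid follicles, was almost without counts in WT, at 0.0756, 0.169 and 0.390 CPM. In KO it ran 2.75, 5.22 and 25.4 CPM, a fitted fold of 41.1 (log2 fold change 5.36, SE 0.571, adjusted p = 5.96e-07). Every KO library lay above every WT library, but the KO libraries differed widely among themselves, with a coefficient of variation of 85.8%, and the highest was again KO 5. Without KO 5 the log2 fold change was 4.89. Markers of B cells did not rise with it: the list summed to 6.11 to 16.0 CPM in KO and 12.3 to 22.4 CPM in WT, and the 1 of its 7 genes that could be tested, Ighm, was lower (log2 fold change -0.81). Cxcl12, the ligand of Cxcr4 and Ackr3, did not pass, at 45.6 ± 19.4 CPM in KO and 38.1 ± 8.25 CPM in WT (log2 fold change 0.26, SE 0.222, adjusted p = 0.361).

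The atypical receptors were among the best expressed members in WT, and 2 of 3 fell. Ackr2, which takes up and degrades inflammatory CC chemokines such as Ccl2 and Ccl5, ran 16.3, 19.8 and 26.7 CPM in KO and 27.5, 32.5 and 55.1 CPM in WT (log2 fold change -0.78, SE 0.136, adjusted p = 9.61e-05). All KO libraries were below all WT libraries. Ackr4, which takes up the homeostatic ligands Ccl19, Ccl21 and Ccl25, ran 14.3, 24.2 and 29.8 CPM in KO and 32.7, 47.6 and 62.9 CPM in WT (log2 fold change -1.04, SE 0.151, adjusted p = 1.42e-05). It too was lower in every KO library than in any WT library. Ackr4 shares 479 bases of exon with Acad11, which also fell (log2 fold change -0.50, adjusted p = 2.42e-05), so its counts are uncertain. Ackr3, which takes up Cxcl12, did not pass, at 121 ± 24.0 CPM in KO and 134 ± 24.1 CPM in WT (log2 fold change -0.14, SE 0.126, adjusted p = 0.361).

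Of the ligands tied to type 2 responses and to eosinophils, Ccl24 (eotaxin-2) fell. It ran 2.92, 3.77 and 4.87 CPM in KO and 6.07, 8.65 and 10.9 CPM in WT, a fitted fold of WT over KO of 2.26 (log2 fold change -1.18, SE 0.149, adjusted p = 2.03e-06). The groups did not overlap. Of the lymphoid and epithelial ligands, Ccl25 did not pass, at 10.5 ± 1.74 CPM in KO and 10.8 ± 1.13 CPM in WT (log2 fold change -0.03, SE 0.104, adjusted p = 0.808), with 204 bases of exon shared with Elavl1. Ccl27a, a skin chemokine, was 1.99 ± 0.472 CPM in KO and 3.41 ± 0.903 CPM in WT (log2 fold change -0.77, SE 0.178, adjusted p = 0.00137). Its groups overlapped, and 45.0% of its 50-base words occur in other genes' transcripts, so its counts are uncertain.

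Ccl19 (ENSMUSG00000071005) and Ccl21a (ENSMUSG00000094686), the ligands that guide dendritic cells and T cells bearing Ccr7, were all but absent from the KO libraries. WT libraries held 26 to 104 counts of Ccl19 each (2.51, 4.81 and 7.87 CPM at the lowest, median and highest), 443 in all. The KO libraries held 2 counts in all, both in KO 8. The ratio of WT to KO was 291 (95% counting interval 79.9 to 2406). For Ccl21a the WT libraries held 20 to 57 counts each (1.93, 3.07 and 4.31 CPM), 277 in all, and the KO libraries 1 count in all, in KO 3. That ratio was 363 (95% counting interval 64.7 to 14400.5). The fitted log2 fold changes, -7.51 (SE 0.470, adjusted p = 1.10e-10) and -7.39 (SE 0.410, adjusted p = 1.99e-11), depend on the prior count at such low values. Every KO library was below every WT library in both genes. Ccl19 shares 52.0% and Ccl21a 71.6% of its 50-base words with transcripts of other genes, and reads of such copies could have been divided among them, so these counts are uncertain.

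The 2 genes are neighbours on chromosome 4, and the low KO counts were not theirs alone. In the annotation's order, 7 successive genes of the count files, Gm21955, 4930578G10Rik, Ccl19, Ccl21a, Gm12394, Fam205a1 and Fam205c, were each below -6 on the log2 scale, as were only 16 of the 14803 tested genes in all. Over the 7 genes the WT libraries held 7853 counts and the KO libraries 73, with no more than 13 in any gene of any KO library. The stretch was chosen after its values were seen. The nearest tested genes on either side did not share it. Ccl27a was at -0.77 on one side, and Dnajb5 at 0.68 (adjusted p = 0.0289), 1700022I11Rik at -0.03 and Vcp at 0.06 on the other. Where the low counts end is less clear. Phf24, next after Fam205c, was not tested and held 35 counts in KO and 127 in WT, with every KO library below every WT library in CPM. The genes between Ccl27a and the stretch were not tested either, for example Gm13305 (5 counts in KO, 25 in WT) and Gm20878 (27 and 34). Further along, past Ccl27a, the successive genes Il11ra1 (-1.62), Cntfr (-6.42, adjusted p = 3.15e-11) and Enho (-2.03) were lower too. In each, every KO library lay below every WT library. Rpp25l (-0.20), Dctn3 (0.31) and Galt (-0.28) lie between that run and Ccl27a. Of the 21 pairs that the 7 genes form, 1 shares any 50-base word in its transcripts. Copies elsewhere share more: 75.0% of the 50-base words of Gm21955, 70.9% of Fam205a1, 51.0% of Gm12394 and 23.8% of 4930578G10Rik occur in transcripts of other genes, with Gm10593 among the partners of 3 of them, so their counts are uncertain too. Fam205c shares none. The cause was not tested.

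**Figure D3:**
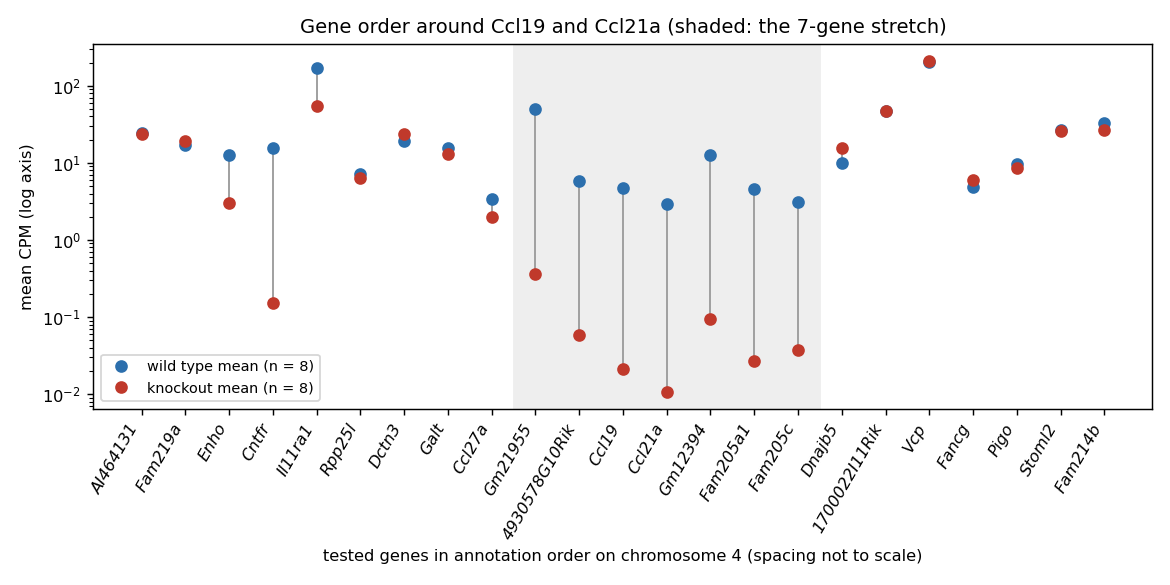
Mean CPM (log axis) of KO and WT is drawn for tested genes in their order on chromosome 4, spacing not to scale, with the 7 successive genes shaded. Inside the shading the KO means lie far below the WT means for every gene, and the tested genes Dnajb5, 1700022I11Rik and Vcp do not show the gap. Phf24, between Fam205c and Dnajb5, was not tested and is not drawn.

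Compared per kilobase of exon, which allows levels of different genes to be set side by side, the order of the members changed between the genotypes. In WT the highest levels were those of Cxcl14 (137 CPM per kb), Ackr3 (39.9), Ackr2 (11.3), Ackr4 (8.89) and Ccl9 (6.70), so 3 of the 5 leading members were atypical receptors. In KO they were Cxcl14 (40.7 CPM per kb), Ackr3 (36.1), Ccl5 (21.3), Ccl12 (12.0) and Ccl7 (10.7). Ccl5 was in place 28 of the 59 in WT, Ccl8 moved from place 35 to place 9, and Cxcl13 from place 36 to place 12. Ccl24 went the other way, from place 6 to place 19, and Ackr4 from place 4 to place 16. Neighbours in these orders can differ by less than their spread. Ccl12 and Ccl7, next to each other in KO, were 6.47 ± 3.02 and 8.54 ± 4.11 CPM before division by length.

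**Figure D4:**
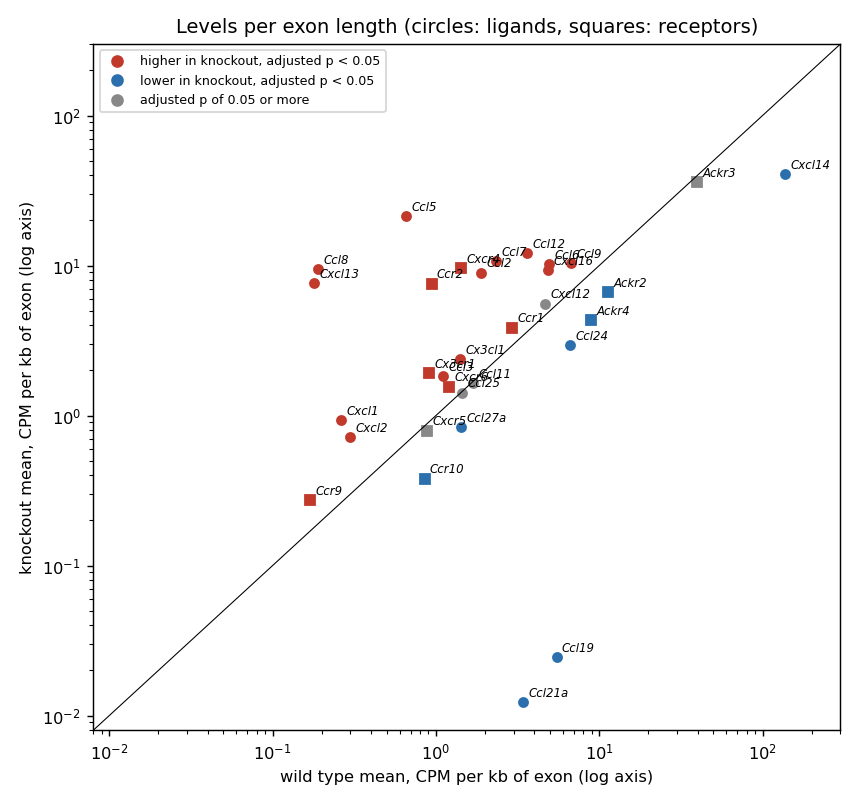
Mean level per kilobase of exon is plotted for KO (y axis) against WT (x axis), both on log axes, for tested members, with circles for ligands, squares for receptors and a line of equal level. Cxcl14 and Ackr3 lie at the upper right, Ccl5, Ccl8 and Cxcl13 far above the line, and Ccl19 and Ccl21a far below it.

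The 26 members that were not tested were mostly without usable counts, and 19 of them had at most 10 counts in every library. The other 7 are Ccl17, Ccl22, Ccl28, Ccr7, Cxcl5, Cxcl9 and Cxcl10. Ccl17 and Ccl22, ligands of Ccr4 made by dendritic cells, held 180 and 84 counts over the KO libraries against 17 and 7 over WT, with 98 of the 180 counts of Ccl17 in KO 5. Ccr7, the receptor of Ccl19 and Ccl21a on mature dendritic cells, held 64 counts in KO and 5 in WT. Cxcl10, an interferon-inducible ligand of Cxcr3, ran from 0.659 to 1.87 CPM in KO (11 to 22 counts) and from 0.0844 to 0.681 CPM in WT (1 to 9 counts), so the groups overlapped slightly in CPM, while Cxcl9 held 27 counts in all of KO and 17 in all of WT. Ccl28 held 76 and 73, and Cxcl5 14 and 1, with 11 of the 14 in KO 8. When the fit was made without the filter on low counts, 5 of the 26 passed, all higher in KO: Ccr7 (log2 fold change 3.08, adjusted p = 0.00215), Ccl22 (3.03, adjusted p = 0.00281), Ccl17 (2.79, adjusted p = 0.00518), Cxcl10 (1.87, adjusted p = 1.52e-04) and Ccl4 (1.18, adjusted p = 0.00708). By role, the members at 10 counts or fewer were 5 CC receptors (Ccr1l1, Ccr3, Ccr4, Ccr6, Ccr8), 3 CXC receptors (Cxcr1, Cxcr2, Cxcr3), Xcr1 and its ligand Xcl1, and 9 ligands (Ccl1, Ccl4, Ccl20, Ccl21b, Ccl26, Ccl27b, Cxcl3, Cxcl15, Cxcl17).

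Marker genes of the cells that make or read these chemokines were measured in the same libraries. The macrophage list summed to 1447, 1764 and 2097 CPM in KO (lowest, median, highest) and to 1307, 1473 and 1910 CPM in WT. Of its 14 genes 5 were higher, 1 was lower and 8 did not pass. Over all tested genes 25.6% were higher and 22.7% lower. Those that rose were Ms4a7 (log2 fold change 0.69), Cd14 (0.47), Adgre1 (0.41), Lyz2 (0.41) and Cd163 (0.38), and Mertk fell (-0.51). Csf1r did not pass (257 ± 31.3 CPM in KO, 279 ± 49.6 CPM in WT, adjusted p = 0.350) and neither did Cd68 (adjusted p = 0.896). KO 5, the library that was highest for 10 of the 33 tested members, including Ccl2, Ccl5, Ccl7, Ccl8, Ccl12 and Cxcl13, also had the highest macrophage sum. In WT the 2 did not go together. WT 5 was the highest WT library for 9 members, including Ccl2, Ccl7, Ccl8 and Ccl12. Its macrophage sum was 1512 CPM, while the highest WT sum, 1910 CPM, was that of WT 8. With the macrophage covariate the log2 fold change was 4.92 for Ccl5 and 2.22 for Ccl2, and 19 members were higher and 9 lower.

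Of 8 tested dendritic cell markers 5 were higher (4 genes of class II antigen presentation and the integrin Itgax), 2 were lower and 1, Zbtb46, did not pass. Beside this, 25.6% of all tested genes were higher and 22.7% lower. The sums of the list ran 409, 479 and 598 CPM in KO against 27.1, 37.5 and 148 CPM in WT, with WT 5 as the highest WT library. In KO the 4 class II genes make up most of these sums. The largest increases were in H2-Ab1 (264 ± 43.7 CPM in KO, 4.37 ± 6.13 CPM in WT, log2 fold change 5.94) and H2-Eb1 (log2 fold change 3.53) and in Itgax (log2 fold change 3.52). Siglech, a marker of plasmacytoid dendritic cells, fell (log2 fold change -1.82), as did Clec9a, a marker of cross-presenting ones (-0.86). The 2 untested genes of the list had more counts in KO. Flt3 held 114 in KO and 11 in WT, and Cd209a 102 and 12. The T and NK cell list summed to 2.81 to 7.90 CPM in KO and 0.960 to 1.88 CPM in WT, and 1 of its 14 genes, Cd4, could be tested (log2 fold change 0.88). Lymphatic endothelial markers, whose cells are a usual source of Ccl21a, had 1 of 4 tested genes lower, near the 22.7% of all tested genes. The one that fell was Lyve1 (34.1 ± 6.80 CPM in KO, 91.8 ± 19.7 CPM in WT, log2 fold change -1.43), which makes up most of the list's sum (33.0 to 66.9 CPM in KO, 67.4 to 124 CPM in WT). Reln (1.65), Stab2 (0.23) and Prox1 (0.00) did not pass, and Flt4, not tested, held 259 counts in KO and 3 in WT. The part of these cell types in the members' changes was not tested.

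**Figure D5:**
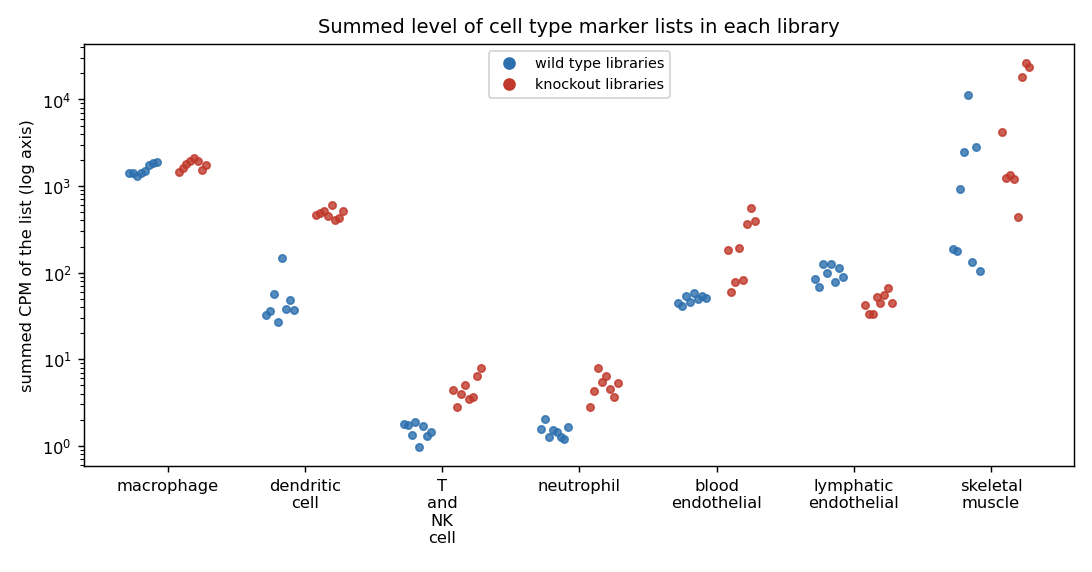
Summed CPM (log axis) of 7 cell type marker lists is shown for each of the 8 WT and 8 KO libraries. The macrophage sums overlap between the groups. The dendritic cell sums, in KO mostly 4 class II antigen presentation genes, are separate at 409 to 598 (KO) against 27.1 to 148 CPM (WT). Siglech and Clec9a of that list fell and Zbtb46 did not pass. Flt3 and Cd209a, not tested, had more counts in KO. The lymphatic endothelial sums, mostly Lyve1, are lower or near the WT range in KO.

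Genes that act with the chemokines were read from the same fit. Of 36 genes of signalling below the receptors, all tested, 16 were higher, 4 lower and 16 did not pass, with a median log2 fold change of 0.21. That is 20 called of 36, near the 48.3% called among all tested genes, so this total says nothing particular about the list. By direction, 25.6% of all tested genes were higher and 22.7% lower. Whether the list's split between directions differs from these shares was not tested. The largest increases were those of the receptor kinase Grk3 (2.69 ± 0.915 CPM in KO, 0.192 ± 0.124 CPM in WT, log2 fold change 3.72, adjusted p = 9.41e-09), of Rgs16, which speeds the shut-off of G proteins (3.20), and of the phospholipase Plcb2 (1.99). The largest decreases were those of Prex1, a Rac exchange factor (123 ± 29.8 CPM in KO, 268 ± 73.3 CPM in WT, log2 fold change -1.12), and of the inhibitory G protein subunit Gnai1 (-0.84). Of 15 proteases that trim or shed chemokines, 12 were tested, 6 higher and 2 lower, beside 25.6% and 22.7% of all tested genes. The metalloproteases Mmp13 (log2 fold change 4.60), Mmp3 (1.35) and Mmp14 (1.05) led the increases, and the cathepsins Ctsl (-1.57) and Ctsk (-0.71) the decreases. Of 20 genes of heparan sulfate, on which chemokines are held, 8 rose and 6 fell, beside the same shares of all tested genes. The largest increases were in Hs6st2 (log2 fold change 2.92), Sdc4 (1.17) and Hspg2 (0.86), and the largest decreases in Sdc1, which fell from 229 ± 54.3 CPM in WT to 42.2 ± 4.15 CPM in KO (-2.44), and in Hs3st3b1 (-1.23).

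Chemokine genes are textbook targets of NF-kB and of interferons, and other targets of each were read from 2 lists. Of 15 tested NF-kB response genes 12 rose and 1 fell, beside 25.6% and 22.7% of all tested genes, with a median log2 fold change of 0.82. Ptgs2 (log2 fold change 2.38), Icam1 (2.36) and Tnfaip3 (1.74) led, and Saa3 was the one that fell (-0.96). Of 23 interferon response genes 5 rose, 2 fell and 16 did not pass, with a median of 0.27, and the share that rose is near that of all tested genes. Gbp4 (2.87), Ifi44 (2.18) and Isg15 (1.35) rose, while Ifit3 (-1.75) and Ifit2 (-0.90) fell. The difference between the lists was not tested. Finally, of 9 chemokines and receptors that carry other kinds of name, Mif, a ligand of Cxcr2, Cxcr4 and Cd74, rose from 19.6 ± 3.33 CPM in WT to 241 ± 57.7 CPM in KO (log2 fold change 3.62, adjusted p = 9.22e-13), and its receptor Cd74 rose as well (3.04). Cmklr1, the chemerin receptor, and Pf4, the platelet chemokine, fell (-0.70 and -0.55), 4 did not pass, and Ppbp, with 66 counts in KO and 54 in WT, was not tested.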

How the data were processed

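Bulk RNA from 8 knockout and 8 wild type tail tendon samples was compared. Per the labels' protocols, fascicles were frozen, ground in the cold and extracted with phenol reagent and columns that remove genomic DNA. The deposited values are read counts per Ensembl gene, 1 file a library, as whole numbers not normalized by the authors. Per the submitters' processing notes, kallisto, featureCounts and build GRCm39 were used. Their roles, versions, the annotation and the strand setting are not given in the sources used here. No label names a batch.

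Of 25719 identifiers, 25614 matched a symbol in the gene name table and 105 did not. Genes were kept by edgeR's filterByExpr (14803 tested, 10916 not), scaled by trimmed means of M values, and tested two-sided in edgeR (version 4.0.16, under R 4.3.3) with its robust quasi-likelihood fit, with limma 3.58.1 and DESeq2 1.42.0 for alternatives, and Benjamini-Hochberg adjustment over all tested genes and a threshold of 0.05. SE is the absolute log2 fold change over the square root of F. Log2 CPM for display used a prior count of 2. Replicate counts within each group differed beyond sampling noise (chi-square per degree of freedom of at least 8.67 in KO and 6.56 in WT). The common biological coefficient of variation was 0.208. In simulated data for the comparison of KO with WT, over 15043 genes, 98.5% of 200 changed genes were recovered and 4.83% of calls were false. Only those 200 genes were changed, by steps larger than many of the changes called here. Every simulated gene had the same biological coefficient of variation, and unequal muscle RNA was not simulated. In the data 48.3% of tested genes were called, so these rates may not hold for them.

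The members, lists and tests were chosen with earlier results of these data known. Members past the threshold are described one by one, other tested members by their means, untested ones where any library holds over 10 counts, and from each other list the 3 largest increases and 2 largest decreases at most; genes named beyond that rule (the genes on chromosome 4, exon partners, and single marker genes such as Csf1r, Cd68 and Flt4) were chosen after their values were seen. Exon lengths, exon overlaps, shared words and gene order came from GENCODE M21 and promoter windows from RefSeq. Both are on GRCm38, so no coordinates of the counted genes are given. Alternatives were other scalings, filters, tools, covariates, a replicate block and leaving out libraries. Ccl21c and Ccl27, which the name rule would take, had no row in the count files and were not analysed here. The values of 1 tested member are not reported here, though counts of members include it.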

Additional observations from a re-analysis of the deposited data

Results flagged for a closer look

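Each of the 33 tested members was checked in each group, 66 checks in all, for a highest or lowest library whose gap to the next, on the log2 CPM scale, was a larger share of the group's range than Dixon's 95% critical value for 8 samples. Chance alone would give about 3.3 such libraries, and 6 were found. KO 5 was the highest library for Ccl2, at 4.59 on the log2 scale with the next at 3.33 (24.0 against 9.86 CPM), and for Ccl7, at 4.19 with the next at 3.11 (18.1 against 8.49 CPM). The same library was the lowest of its group for Cxcr6, at 1.02 with the next at 1.53 (1.93 against 2.72 CPM). WT 3 was the highest for Ackr2, at 5.79 with the next at 5.26 (55.1 against 38.1 CPM). WT 6 was the lowest for Ccl25, at 3.08 with the next at 3.37 (8.27 against 10.1 CPM). KO 8 stood out for Ccl19 at -1.56 with the next at -2.55, which is its 2 counts against libraries with none.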

How the results depend on the processing

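Over 27 other settings, 25 of the 28 called members kept their direction and stayed past the threshold. Ccl3 lost its call in 14, Cxcr6 in 20 and Ccr1 in 1. Members higher in KO numbered 18 to 23 and members lower 8 to 9, and all calls 6101 to 9685. Leaving out 1 library at a time gave 6790 to 7151 calls over all genes, 18 to 20 members higher and 8 lower, 13 to 16 signalling genes higher and 4 lower. With total counts as the scale, the signalling genes higher in KO went from 16 to 29, Cxcl12 passed (0.57, adjusted p = 0.0332), and 3 members that were not called changed sign: Ackr3 to 0.15, Ccl25 to 0.27 and Cxcr5 to 0.14. The median of all genes then moved from 0.02 to 0.32.

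Whether the replicate numbers pair the samples was not settled. Deviations from the group means over all tested genes were correlated between same-numbered KO and WT libraries. The correlations ran from -0.39 to 0.41, 3 of 8 over 0.1, and 2 KO libraries were closest to their own number. Such deviations also take in unequal muscle RNA, so they cannot exclude a pairing. With the replicate block there were 7010 calls, 18 members higher, 8 lower, and Ccl11 was at -0.19.

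Ccl11, not called, was also below 0 with the DESeq2 Wald test (-0.031), limma-voom (-0.0682) and a muscle marker covariate (-0.47). It was at -0.35 without KO 5, KO 6, KO 8 and WT 8, libraries set apart in earlier results. With 1 library left out at a time, Ccl11 ran from -0.39 without KO 6 to 0.17 without WT 5. Of those fits, only the ones without KO 6, KO 7, WT 2 or WT 6 were below 0. Ccl25, not called, ran, with 1 library left out at a time, from -0.0836 without WT 6 to 0.0143 without KO 5. Chosen after seeing the data were a macrophage marker covariate (Ccl11 -0.0108, Ccl25 0.0043, and Ackr3 past the threshold at -0.28, adjusted p = 0.0429) and leaving out KO 6, KO 7, KO 8 and WT 5, the libraries with most muscle RNA (Ccl11 -0.61, Cxcl12 -0.17, adjusted p = 0.411). The cause of these changes was not tested. Depth limits the 20 members with under 50 counts in each group, where only large differences could be seen.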
